A study of Mus musculus with 6 samples.

Results

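The 9 genes described here encode the VEGF receptors (Kdr, Flt1 and Flt4), the neuropilin co-receptors (Nrp1 and Nrp2), the Tie receptors (Tek and Tie1) and the angiopoietins (Angpt1 and Angpt2). They were chosen by gene symbol, 9 of the 24062 genes counted in each library, and all 9 had enough reads to be tested. RNA was sequenced from CD31+ckit+ cells sorted from the AGM (aorta-gonad-mesonephros, the region around the dorsal aorta) of embryonic day 10.5 mouse embryos of strain C57BL/6JOlaHsd, with 3 libraries of medium Venus fluorescence (Vmed) and 3 of high Venus fluorescence (Vhigh). All embryos, in both fractions, carried 1 Gata2Venus allele, a fluorescent reporter placed behind the Gata2 coding region, so that the fractions differ in the level of the Gata2 reporter and no sample without it was analysed here. The study describes 3 independent experiments, and the libraries carry the replicate numbers 1 to 3 in each fraction. How many embryos or cells went into a library is not given in the sources used here. The comparison asks which of these vascular receptors and ligands differ between cells with medium and with high Gata2 reporter. From function and RNA, the study reads Vhigh cells as further differentiated blood cells and Vmed cells as immature progenitors and stem cells. It also reported genes that differed between these fractions by edgeR at a false discovery rate of 0.05.

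VEGF receptors are tyrosine kinases on endothelial cells. VEGF-A signals mainly through Kdr (VEGFR2), Flt1 (VEGFR1) binds VEGF-A tightly while signalling weakly, Flt4 (VEGFR3) takes up VEGF-C and VEGF-D and marks lymphatic and some embryonic endothelium, and neuropilins bind both VEGF and class 3 semaphorins. Tek (Tie2) is the receptor of the angiopoietins: Angpt1 is its agonist and keeps vessels quiescent, Angpt2 is a context-dependent antagonist made mainly by activated endothelium, and Tie1 is an orphan relative that modulates Tek. Kdr marks the mesoderm and endothelium from which embryonic blood arises, and Angpt1 is also made by mural cells, megakaryocytes and immature blood progenitors.

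The libraries held 8296831 to 12035206 reads counted in genes. Levels are given in CPM, the reads of a gene scaled to the gene total of its library. Vhigh replicate 1 stood apart in complexity, with 10427 genes above 0 where the others had 12709 to 18460. The sorting markers were detected in every library. Pecam1, which encodes CD31, was at 118, 569 and 476 CPM in Vmed replicates 1, 2 and 3 and at 160, 224 and 436 CPM in the corresponding Vhigh libraries. Kit was at 64.1, 208 and 59.1 CPM in Vmed and at 255, 490 and 521 CPM in Vhigh, without overlap. Gata2 itself overlapped between the fractions, with 50.3, 29.4 and 68.3 CPM in Vmed and 39.2, 82.5 and 142 CPM in Vhigh, a log2 fold change of 0.78 (SE 0.73). The gene counts of these bulk libraries are averages over sorted cells, so that fewer cells of a type and less RNA per cell cannot be told apart.

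Of the 9 genes, Angpt1 was much higher and Nrp1 lower in Vhigh, each with no overlap between the fractions, while the libraries of the other 7 overlapped. By edgeR's quasi-likelihood test none of the 9 passed an adjusted p of 0.05, nor did any of the 12688 genes tested (0%), and at an unadjusted p under 0.05 Angpt1 was among the 110 genes higher in Vhigh (0.867%) and Nrp1 among the 149 lower (1.17%). In CPM, 527 of all tested genes had every Vhigh library above every Vmed library (4.15%) and 598 had every one below (4.71%), so that 1 member in each direction has to be read against these shares. The median log2 fold change (Vhigh over Vmed) of the 9 genes was -0.74, against -0.02 over all tested genes. The spread between replicates was wide, with a common biological coefficient of variation of 1.16, and the number of genes called depended on the test: the likelihood ratio test called 21 genes (0.166%), DESeq2 called 51 of 12476 (0.409%), the quasi-likelihood test without a filter on low counts called 37 of 20033 (0.185%), and the likelihood ratio test with the replicate number as a block called 74 (0.583%). Angpt1 was among the genes called by each of these 4, and Nrp1 only by the last. Limma-voom called 0 genes, and so did the quasi-likelihood test with the replicate block.

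**Figure D1:**
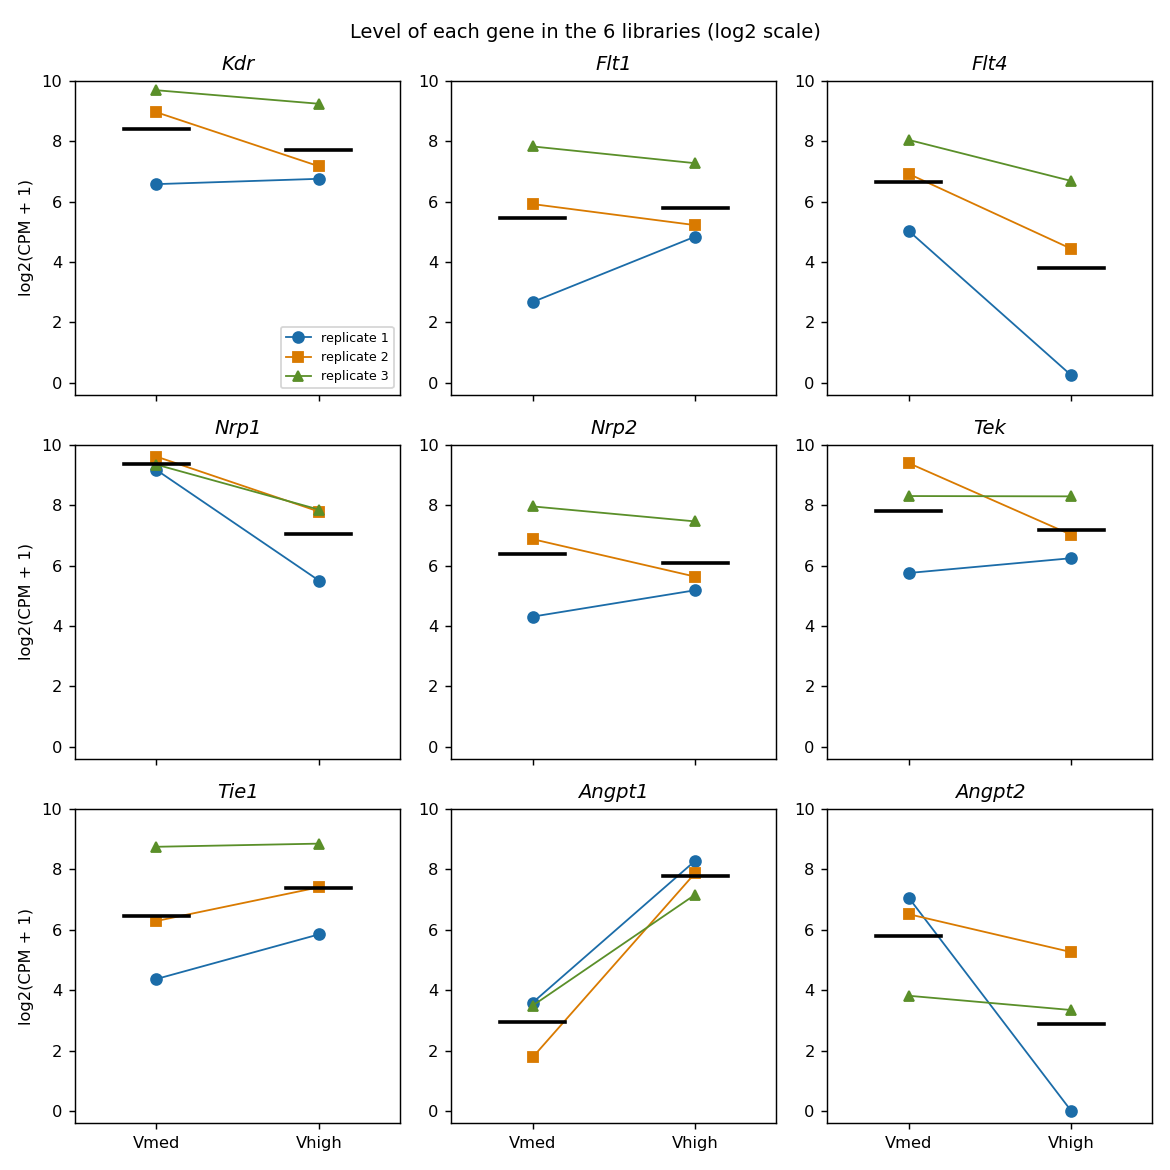
Level of each of the 9 genes in each library, as log2(CPM + 1), with Vmed and Vhigh side by side, lines joining libraries of the same replicate number and black bars at the mean of the log2 values of a fraction. Angpt1 lies at 2.41 to 11.0 CPM in Vmed and at 142 to 311 CPM in Vhigh, Nrp1 at 578 to 785 CPM in Vmed and 44.6 to 232 CPM in Vhigh, and the other 7 genes overlap.

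Angpt1, the agonist ligand of Tek, was at 11.0, 2.41 and 10.2 CPM in Vmed replicates 1, 2 and 3 (96, 20 and 99 reads). In Vhigh it was at 311, 234 and 142 CPM (3317, 2545 and 1713 reads). Every Vhigh library was thus far above every Vmed library, and the nearest libraries of the 2 fractions were 13.0-fold apart. The means were 7.86 ± 4.74 CPM in Vmed and 229 ± 84.5 CPM in Vhigh (SD, n = 3), and the fitted difference was 28.3-fold (log2 fold change 4.82, SE 0.68). Between libraries of the same number the ratio was 28.3, 97.2 and 14.0. Angpt1 ranked 1st of the 12688 genes by edgeR's quasi-likelihood test, with an unadjusted p of 0.00012. Its adjusted p was 0.664 in that edgeR fit, and once replicate number entered as a block it was 0.565 (log2 fold change 5.01). The adjusted p was 1.03e-06 by DESeq2, 0.00048 by edgeR's likelihood ratio test, and 3.3e-06 by that test with the block. By limma-voom the adjusted p of Angpt1 was 0.9999. Without replicate 1 of both fractions, a setting chosen after seeing the data, its log2 fold change was 4.78 (adjusted p = 0.686 by edgeR). The exact two-sided permutation test gave p = 0.1, the smallest that 3 libraries against 3 allow.

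Angpt1 lies at 15:42424723-42676977 on the minus strand of GRCm38. An antisense gene, Gm17473, covers 737 bases of its exons (14.2%) and is not a row of the count table. Whether the reads were counted by strand is not given in the sources used here, and without strand the reads of Gm17473 and of Angpt1 cannot be told apart. Relative to Kit, which was also higher in Vhigh, Angpt1 per exon length was 29.5%, 2.04% and 29.7% of Kit in Vmed and 209%, 81.8% and 46.8% of Kit in Vhigh, so that the fractions did not overlap on this scale either. That comparison was chosen after seeing the data, and how often other genes separate the fractions relative to Kit was not computed. All 15 tested hematopoietic markers (among them Kit, Runx1, Myb and Coro1a, each with an unadjusted p under 0.05) had a positive log2 fold change, with a median of 1.08. Their summed level was 468 to 1188 CPM in Vmed and 1120 to 2822 CPM in Vhigh, and their part in the Angpt1 difference was not tested.

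Angpt2, the context-dependent antagonist, was at 133, 90.8 and 13.1 CPM in Vmed and at 0, 37.4 and 9.14 CPM in Vhigh. It was lower in Vhigh in 3 of 3 pairs of libraries of the same number, yet Vhigh replicate 2 was above Vmed replicate 3, so that the fractions overlapped. The share of all tested genes lower in 3 of 3 pairs was not computed. The 0 of 10660122 gene reads in Vhigh replicate 1 allows a level of up to 0.281 CPM. The log2 fold change was -2.51 (SE 1.53, unadjusted p = 0.150 and adjusted p = 0.9998 by edgeR), and -1.26 without replicate 1 of both fractions. Angpt2 (8:18690263-18741562, minus strand) lies within Mcph1 on the opposite strand and shares no exon base with it. Angpt1 and Angpt2 were the least alike of all pairs of the 9 genes, with a root mean square difference of their mean-centred log2 CPM of 5.25 over the 6 libraries.

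Nrp1, a co-receptor of VEGF-A and of class 3 semaphorins, was the only receptor without overlap. It was at 578, 785 and 653 CPM in Vmed and at 44.6, 221 and 232 CPM in Vhigh. Its Vmed libraries lay within 1.36-fold of each other, the tightest of any receptor in either fraction, and the lowest of them was 2.49-fold above the highest Vhigh library. The means were 672 ± 105 CPM and 166 ± 105 CPM (SD, n = 3). The fitted difference was 4.25-fold lower in Vhigh (log2 fold change -2.09, SE 0.57), and Vmed over Vhigh was 13.0, 3.55 and 2.82 in the pairs of the same number. By edgeR's quasi-likelihood test the unadjusted p was 0.0053 (rank 41 of 12688) and the adjusted p 0.9998. When the likelihood ratio test took the replicate block in, Nrp1 had a log2 fold change of -2.35 and an adjusted p of 0.0082, against 0.364 without the block and 0.136 by DESeq2. Without replicate 1 of both fractions the log2 fold change was -1.73. The exact permutation test gave p = 0.1, again the smallest possible.

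Nrp1 lies at 8:128358604-128503363 on the plus strand, and the 80 bases of Mir1903 overlap it. Relative to Pecam1, Nrp1 also stood lower in Vhigh without overlap: the log2 ratio of Nrp1 to Pecam1 reads was 2.29, 0.46 and 0.46 in Vmed and -1.84, -0.02 and -0.91 in Vhigh, a difference of -1.99 or 3.98-fold (exact permutation p = 0.1). The other receptors overlapped on this scale. How many of all tested genes separate the fractions relative to Pecam1 was not computed. Nrp1 is also made by mesenchymal cells and macrophages, whose markers were also lower in Vhigh. All libraries come from cells sorted for CD31 and ckit, and the purity of the sort was not examined here. Among 14 mesenchymal and mural markers 13 had a negative log2 fold change, 7 with an unadjusted p under 0.05, and their sum was 2485 to 5541 CPM in Vmed and 381 to 833 CPM in Vhigh. Among 14 macrophage markers 13 were negative, 7 with an unadjusted p under 0.05, and their sum was 1053 to 1881 CPM against 104 to 590 CPM. In Vhigh replicates 1, 2 and 3, the macrophage markers at 0 numbered 4, 2 and 1 of 14. The mesenchymal and mural markers at 0 numbered 2, 0 and 2 of 14. The part of these cells in the Nrp1 difference was not tested.

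Nrp2, its paralog with affinity for VEGF-C, was at 18.9, 117 and 249 CPM in Vmed and at 35.5, 48.9 and 176 CPM in Vhigh. The fractions overlapped over their whole range (log2 fold change -0.58, SE 0.92, unadjusted p = 0.546 by edgeR). Per exon length, Nrp2 was 2.71%, 12.3% and 31.6% of Nrp1 in Vmed and 65.8%, 18.3% and 62.9% of Nrp1 in Vhigh. Nrp2 was thus closer to Nrp1 in 2 of the 3 Vhigh libraries than in any Vmed library, with Vhigh replicate 2 inside the Vmed range. Whether the 2 neuropilins differed in their fold change was not tested.

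Kdr, the main signalling receptor for VEGF-A, was at 94.8, 499 and 828 CPM in Vmed and at 107, 143 and 606 CPM in Vhigh. In both fractions replicate 1 was lowest and replicate 3 highest, and the replicates of 1 fraction differed more (8.73-fold in Vmed and 5.65-fold in Vhigh) than the fraction means, 474 ± 367 and 286 ± 278 CPM (SD, n = 3). The log2 fold change was -0.74 (SE 0.83, unadjusted p = 0.396 by edgeR). It was -1.89 without Vhigh replicate 3 (unadjusted p = 0.024 by edgeR) and -0.02 without Vmed replicate 3. Within the pairs of the same number Vhigh was 1.13, 0.287 and 0.732 of Vmed, and thus not in 1 direction. Relative to Pecam1 the difference was -0.34 on the log2 scale (exact permutation p = 0.5).

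Flt1, the high-affinity receptor with weak kinase signalling, was at 5.38, 59.7 and 227 CPM in Vmed and at 27.7, 36.4 and 154 CPM in Vhigh. The lowest Vmed library was 42.2-fold below the highest, and the Vhigh libraries lay inside that range. The log2 fold change was -0.44 (SE 1.12) and turned positive with the replicate block (0.23, SE 0.73), so that no direction can be given. Counts per gene do not separate the membrane-bound Flt1 from its soluble splice form. Per exon length Flt1 was 3.83%, 8.0% and 18.3% of Kdr in Vmed and 17.3%, 17.0% and 17.0% of Kdr in Vhigh. On the log2 scale this ratio was -3.60 ± 1.13 in Vmed and -2.55 ± 0.014 in Vhigh (SD, n = 3). The 3 Vhigh ratios lay closer together than the counting error of a single one, which was 0.038 to 0.094, and they fell inside the range of the Vmed ratios. As the plot of ratios within a library shows, Vmed replicate 3 was close to the Vhigh libraries and Vmed replicates 1 and 2 were lower.

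Flt4, the receptor for VEGF-C, was at 31.8, 120 and 264 CPM in Vmed and at 0.188, 20.7 and 102 CPM in Vhigh. Vhigh replicate 1 held 2 Flt4 reads, under the limit of 3 reads (0.281 CPM) that was set for a detected gene. Flt4 was lower in Vhigh in all 3 pairs, by 5.81-fold in replicate 2 and 2.58-fold in replicate 3, but Vhigh replicate 3 was above Vmed replicate 1. How many of all tested genes were lower in all 3 pairs was not computed. The log2 fold change was -1.78 (SE 1.37, unadjusted p = 0.235 by edgeR), and -3.28 (SE 0.99, unadjusted p = 0.034 by edgeR) when paired by the replicate block. Without replicate 1 of both fractions it was -1.66. Per exon length Flt4 was 36.8%, 26.5% and 35.0% of Kdr in Vmed and 0.240%, 15.9% and 18.5% of Kdr in Vhigh, with no overlap. How often other genes separate the fractions relative to Kdr was not computed.

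Tek, the angiopoietin receptor, was at 53.2, 677 and 317 CPM in Vmed and at 75.1, 129.5 and 314 CPM in Vhigh. Vmed replicate 2 alone was far above Vhigh replicate 2, and in replicate 3 the fractions were nearly equal (Vhigh was 0.993 of Vmed). The log2 fold change was -1.01 (SE 0.81, unadjusted p = 0.246 by edgeR). It was -0.15 when Vmed replicate 2 was left out. Per exon length Tek was 108%, 260% and 73.3% of Kdr in Vmed and 134%, 173% and 99.3% of Kdr in Vhigh, so that the order of Tek and Kdr differed between libraries. It also depended on the length used: with the longest transcript of each gene Tek was 71.4%, 173% and 48.7% of Kdr in Vmed and 89.1%, 115% and 66.0% of Kdr in Vhigh, and the mean log2 ratio turned from 0.34 to -0.25 in Vmed and from 0.40 to -0.19 in Vhigh.

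Tie1, the orphan partner of Tek, was at 19.7, 77.4 and 430 CPM in Vmed and at 56.7, 169 and 463 CPM in Vhigh. It was the only receptor that was higher in Vhigh in 3 of 3 pairs, by 2.88, 2.19 and 1.08-fold, although the replicates of a fraction differed far more than that (21.9-fold in Vmed and 8.17-fold in Vhigh). The share of all tested genes higher in 3 of 3 pairs was not computed, so this agreement cannot be weighed. The log2 fold change was 0.34 (SE 1.02, unadjusted p = 0.744 by edgeR) and 0.88 (SE 0.36, unadjusted p = 0.054 by edgeR) when paired by the replicate block. It turned to -0.68 when Vhigh replicate 3 was left out. Tie1 per exon length was 35.5%, 11.0% and 130% of Tek in Vmed and 72.3%, 125% and 141% of Tek in Vhigh. Angpt1 per exon length was 18.8%, 0.331% and 2.93% of Tek in Vmed and 375%, 164% and 41.0% of Tek in Vhigh. The fractions overlapped in the ratio of Tie1 to Tek and did not in that of Angpt1 to Tek. How often other genes separate the fractions relative to Tek was not computed.

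**Figure D2:**
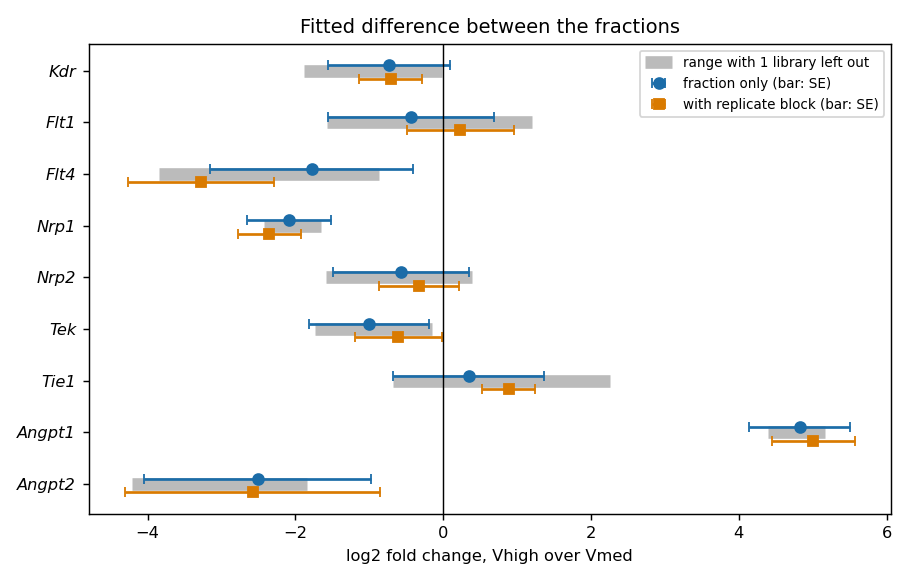
Fitted log2 fold change, Vhigh over Vmed, of the 9 genes, with circles and bars for the estimate and its standard error, squares for the fit paired by replicate number and broad grey bars for the range when each library was left out in turn. Angpt1 stays between 4.39 and 5.17 and Nrp1 between -2.43 and -1.66, while the ranges of Flt1, Nrp2 and Tie1 cross 0.

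**Figure D3:**
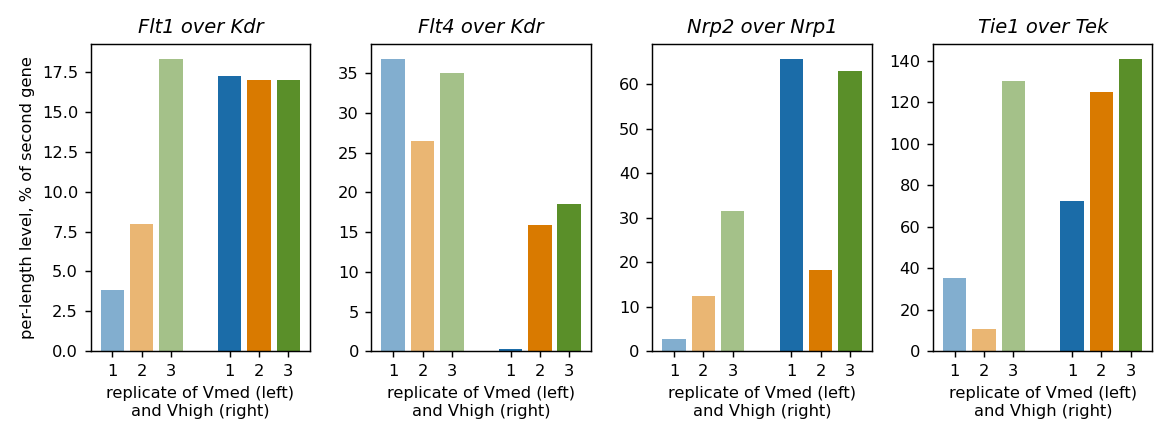
Ratio of 4 pairs of genes within each library, per exon length, as percent of the second gene, with 1 bar per library from 0, Vmed on the left and Vhigh on the right. Flt1 is 3.83% to 18.3% of Kdr in Vmed and 17.0% to 17.3% in Vhigh, and only the ratio of Flt4 to Kdr does not overlap between the fractions.

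Ordered by level per exon length (RPKM, the CPM divided by the kilobases of exon), the mean of Vmed ran from Tek (74.0 ± 66.4) through Nrp1 (68.7 ± 10.7), Kdr (52.5 ± 40.7), Tie1 (35.8 ± 45.2), Angpt2 (21.4 ± 16.5), Flt4 (16.9 ± 14.2), Nrp2 (10.8 ± 9.77) and Flt1 (7.21 ± 8.55) to Angpt1 (1.51 ± 0.91). In Vhigh it ran from Tie1 (46.7 ± 42.6) through Angpt1 (44.0 ± 16.2), Tek (36.7 ± 26.6), Kdr (31.6 ± 30.8), Nrp1 (16.9 ± 10.7), Nrp2 (7.34 ± 6.57), Flt1 (5.38 ± 5.23) and Flt4 (4.98 ± 6.55) to Angpt2 (4.20 ± 5.28). All errors are SD over n = 3. Every pair of neighbours in either order overlapped in the range of its libraries, so that only wider steps are resolved. Angpt1 was last of 9 in Vmed and 2nd of 9 in Vhigh.

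The receptors varied together across replicate numbers. Replicate 1 was the lowest library in both fractions for all 7 receptors, a pattern held by 29.2% of tested genes and by 10 of 20 endothelial markers. In Vhigh, replicate 1 was lowest and replicate 3 highest for 7 of 7 receptors (29.2% of tested genes). In Vmed this order held for 5 of 7 (21.4% of tested genes), and the exceptions were Nrp1 and Tek, whose highest library was replicate 2. The angiopoietins did not follow it. Angpt1 was highest in replicate 1 in both fractions, and Angpt2 was highest in replicate 1 in Vmed and in replicate 2 in Vhigh. The endothelial markers summed to 2586, 6096 and 7463 CPM in Vmed and to 1892, 2790 and 5542 CPM in Vhigh. These sums were also lowest in replicate 1 and highest in replicate 3. Taken singly, 8 of 20 markers followed this order in Vmed and 12 of 20 in Vhigh. Of the 20 markers, 19 had a negative log2 fold change, with a median of -0.91. The part of endothelial content in the receptors' variation was not tested. The share of gene reads from the ribosomal RNA gene Rn45s was 10.5% and 7.47% in the replicate 3 libraries and 0.887% to 1.53% in the others.

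Division by Pecam1 within a library removes any shared scale. The range of the log2 values over the 3 libraries of a fraction remained 1.11 and 1.12 for Kdr to Pecam1, in Vmed and Vhigh, and 3.37 and 1.12 for Flt1 to Pecam1. Thus Kdr and Flt1 did not vary in constant proportion to Pecam1. The difference between fractions was 0.70 for Flt1 (exact permutation p = 0.5), 0.06 for Nrp2 (p = 0.8), -0.29 for Tek (p = 0.7), 1.26 for Tie1 (p = 0.3) and -3.32 for Flt4 (p = 0.2). With Vhigh replicate 1, which held 2 Flt4 reads, left out, the Flt4 difference was -1.10. Apart from Nrp1, every receptor overlapped between the fractions once set against Pecam1, and these permutations did not use the pairing by replicate number. Within the pairs, Tie1 relative to Pecam1 was higher in Vhigh in 3 of 3, from -2.58 to -1.50, from -2.88 to -0.40 and from -0.15 to 0.09. Flt4 relative to Pecam1 was lower in 3 of 3, from -1.89 to -9.42, from -2.24 to -3.43 and from -0.85 to -2.09. No share over all tested genes was computed for such agreement between pairs.

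**Figure D4:**
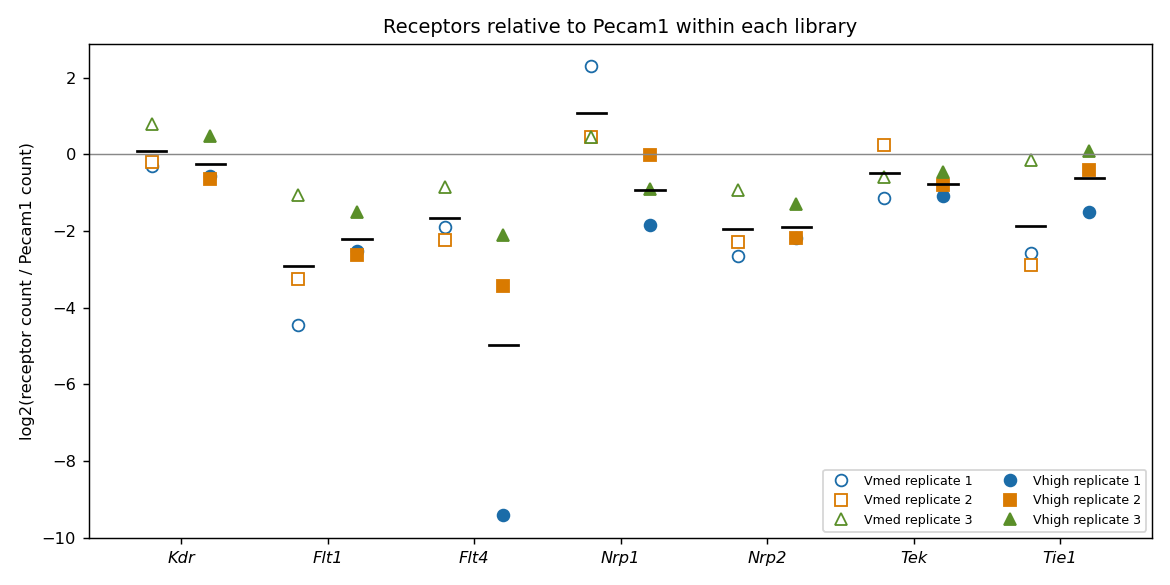
Log2 ratio of the reads of each receptor to those of Pecam1 in each library, with open symbols for Vmed, filled symbols for Vhigh, 1 shape for each replicate number and black bars at the fraction mean. Nrp1 is at 0.46 to 2.29 in Vmed and -1.84 to -0.02 in Vhigh, and the other 6 receptors overlap.

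Among the 9 genes Kdr and Nrp2 were the most alike across the 6 libraries, with a root mean square difference of mean-centred log2 CPM of 0.27. Outside the set, the 5 genes closest to Kdr among the 12679 other tested genes were Npr1 (0.26), Ing2 (0.26), Pald1 (0.27), Col4a1 (0.30) and Pfkl (0.37), where the median over all genes was 1.79. Closest to the mean of Kdr, Flt1, Tek and Tie1 were Pigt (0.23), Itga5 (0.23), Abhd17a (0.25), Dag1 (0.29) and Gaa (0.29), with a median over all genes of 1.85. These are descriptions over 6 libraries that share the replicate pattern given above.

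The start regions of the receptor genes were read from RefSeq (GRCm38.p6), 250 bases before to 50 bases after the start, for the 7 receptors; Angpt1 and Angpt2 have no entry. They were searched on both strands for GATAA, the core of a site for GATA factors such as Gata2, and for CCGGAA and AGGAAG, cores of sites for the ETS factors that drive endothelial genes. No match overlapped another. GATAA occurred in 1 of 7 (Tek), and in 25.4% of all 32851 promoters of the table. CCGGAA occurred in 1 of 7 (Kdr), and in 14.9% of all. AGGAAG occurred in 3 of 7 (Flt1, Nrp1 and Tie1), and in 35.4% of all. Flt4 and Nrp2 held none of the 3 motifs. Nrp1 is shown as the receptor that separated the fractions, Kdr and Flt1 as the pair compared above, and Tek as the one with the GATAA match. Capitals mark the matches, and each sequence runs 5′ to 3′ on the strand of the gene.
Nrp1, chr8:128358823-128359122, plus strand, with AGGAAG starting at -91 from the start site: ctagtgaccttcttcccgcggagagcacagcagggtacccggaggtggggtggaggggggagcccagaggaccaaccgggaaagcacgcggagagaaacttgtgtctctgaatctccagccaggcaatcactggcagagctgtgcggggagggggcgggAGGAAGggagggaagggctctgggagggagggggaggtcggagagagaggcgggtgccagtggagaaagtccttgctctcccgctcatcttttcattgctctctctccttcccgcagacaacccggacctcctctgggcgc
Kdr, chr5:75978406-75978705, minus strand, with CCGGAA on the opposite strand at -153: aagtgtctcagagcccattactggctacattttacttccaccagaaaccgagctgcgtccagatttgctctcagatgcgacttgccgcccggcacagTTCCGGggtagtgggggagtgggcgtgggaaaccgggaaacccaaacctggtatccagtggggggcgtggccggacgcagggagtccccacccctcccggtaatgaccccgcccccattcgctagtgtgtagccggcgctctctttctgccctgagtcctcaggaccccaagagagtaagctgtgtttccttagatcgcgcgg
Flt1, chr5:147725962-147726261, minus strand, with AGGAAG at -129 and -53: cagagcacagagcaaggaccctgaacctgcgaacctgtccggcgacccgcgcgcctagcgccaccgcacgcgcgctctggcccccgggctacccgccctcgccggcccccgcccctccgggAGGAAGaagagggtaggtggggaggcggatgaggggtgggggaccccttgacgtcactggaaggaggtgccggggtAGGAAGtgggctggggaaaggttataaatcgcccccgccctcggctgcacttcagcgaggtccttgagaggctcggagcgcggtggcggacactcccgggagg
Tek, chr4:94739039-94739338, plus strand, with GATAA at 38: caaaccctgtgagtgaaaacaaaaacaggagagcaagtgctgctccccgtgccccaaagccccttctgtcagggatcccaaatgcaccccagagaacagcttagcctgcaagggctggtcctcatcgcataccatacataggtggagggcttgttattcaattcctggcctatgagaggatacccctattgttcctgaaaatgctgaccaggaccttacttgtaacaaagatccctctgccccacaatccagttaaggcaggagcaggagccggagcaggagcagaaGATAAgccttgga
A match is a string of letters in these windows and was not tested for binding.

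The ligands and partners of the receptors were examined as 6 lists, in which no gene passed an adjusted p of 0.05 by edgeR's quasi-likelihood test. Listed genes without overlap have to be read against all tested genes. Of those, 4.15% were higher in Vhigh without overlap and 4.71% lower. At an unadjusted p under 0.05 by the same test, 0.867% of all tested genes were higher and 1.17% lower. Of the VEGF ligands, 5 were counted and 4 tested, and none passed an unadjusted p of 0.05. Vegfc, a ligand of Flt4 and Kdr, was the 1 ligand that separated the fractions, with 6.64, 8.32 and 8.85 CPM in Vmed and 27.3, 11.7 and 25.5 CPM in Vhigh (log2 fold change 1.45, SE 1.30). Pgf, a ligand of Flt1, was at 64.0, 26.3 and 6.38 CPM in Vmed and at 0.0938, 12.0 and 1.58 CPM in Vhigh, where the lowest value is 1 read. Vegfa was low throughout, with a mean of 7.13 CPM in Vmed and 2.00 CPM in Vhigh, Vegfb had a log2 fold change of -1.18, and Figf (VEGF-D) reached 1.69 CPM at most and was not tested. The median log2 fold change of the ligands was -1.59.

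Of 8 partners of the Tie pathway, Dok2, an adaptor that binds activated Tek and is also found in blood cells, was higher in Vhigh at an unadjusted p of 0.013 by edgeR. It was at 47.3, 90.6 and 59.3 CPM in Vmed and at 164, 300 and 154 CPM in Vhigh, without overlap (log2 fold change 1.60, SE 0.52). Svep1, an extracellular protein of the Tie pathway, was lower without overlap (11.2, 15.4 and 14.3 CPM in Vmed and 0, 3.87 and 3.66 CPM in Vhigh). Ptprb, the phosphatase that dampens Tek signalling, was at 20.7, 168 and 119 CPM in Vmed and at 0.188, 47.5 and 71.5 CPM in Vhigh. These overlapped, as did the remaining 5 partners, and the median of the list was -1.17.

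Among 13 semaphorins, plexins and adaptors of neuropilins (median -1.24), Sema3c was lower at an unadjusted p of 0.047 by edgeR, with 8.92, 28.6 and 9.26 CPM in Vmed and 0, 0.552 and 0.997 CPM in Vhigh. Plxna3, a signalling partner of neuropilins, was also lower without overlap, at 21.6, 25.1 and 13.6 CPM in Vmed and 0, 3.04 and 11.5 CPM in Vhigh. Of 26 tested genes that carry receptor signals inside the cell (median 0.15), Plcg2 was higher at an unadjusted p of 0.047 by edgeR, although its lowest Vhigh library, 35.5 CPM, was below every Vmed library, and no gene of this list separated the fractions. Of 10 tested genes induced by VEGF (median -1.13), Egr1 was lower without overlap (79.9, 49.4 and 159 CPM in Vmed and 2.25, 37.4 and 45.2 CPM in Vhigh). Of 18 transcription factors that act on these receptor genes (median -0.41), Tal1 was higher without overlap (26.7, 30.0 and 39.5 CPM in Vmed and 94.5, 51.7 and 73.9 CPM in Vhigh). Neither Egr1 nor Tal1 passed an unadjusted p of 0.05.

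The remaining marker lists were mostly lower in Vhigh. The 11 megakaryocyte markers counted (10 of them tested) summed to 630 to 1259 CPM in Vmed and 307 to 427 CPM in Vhigh. Of the tested ones 8 had a negative and 2 a positive log2 fold change, with 3 genes lower at an unadjusted p under 0.05 by edgeR. Erythroid markers (9 counted, 6 tested) summed to 188 to 602 CPM in Vmed and 101 to 233 CPM in Vhigh, with Hba-a1 and Hba-a2 at 0 in all 6 libraries. Epithelial and mesonephric markers (9 counted, 6 tested) summed to 220 to 309 CPM against 93.1 to 144 CPM, and neural crest markers (8 counted, 5 tested) to 53.0 to 173 CPM against 14.5 to 115 CPM. Their part in the values of the 9 genes was not tested.

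**Figure D5:**
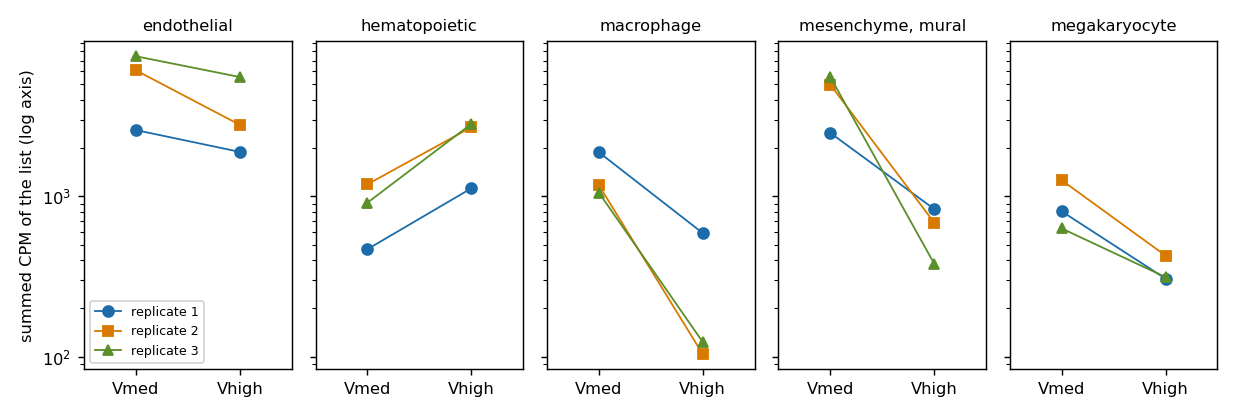
Summed level of 5 lists of cell type markers in each library, in CPM on a log axis, with Vmed and Vhigh side by side and lines joining libraries of the same replicate number. Mesenchymal and mural markers (2485 to 5541 CPM in Vmed and 381 to 833 CPM in Vhigh) do not overlap between fractions. Neither do macrophage markers (1053 to 1881 and 104 to 590 CPM) or megakaryocyte markers (630 to 1259 and 307 to 427 CPM). Endothelial and hematopoietic markers overlap.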

How the data were processed

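RNA of sorted CD31+ckit+Vmed and CD31+ckit+Vhigh cells was amplified by SMARTer and sequenced as single reads on Illumina instruments. The submitters' processing notes name TopHat with Bowtie 1.1.2 (GRCm38/mm10) and HTSeq, and the deposited values are raw read counts per gene symbol, 1 file per library. The annotation and the HTSeq strand mode are not given in the sources used here. HTSeq's lines of unassigned reads, 55.0% to 77.2% of alignments, were left out of totals.

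CPM used each library's gene total, and RPKM the union of exons in GENCODE M21 (GRCm38). Limits of 3 reads equal 0.249 to 0.362 CPM and cover counting error only, since SMARTer reads carry no molecular identifiers. Genes were filtered by filterByExpr (12688 kept), scaled by TMM, and compared by edgeR 4.0.16 (quasi-likelihood, no block, Benjamini-Hochberg over all tested genes) in R 4.3.3. The procedure was tried on simulated data with far less spread between replicates than these libraries had. That trial therefore does not show how the test behaves at the spread seen here. The fit printed for each gene is log2 Vhigh over Vmed. Ratios within libraries had 0.5 added to each count and were compared by exact two-sided permutation over 20 arrangements. Alternatives were other scalings and filters, the likelihood ratio test, DESeq2 1.42.0, limma-voom 3.58.1, the replicate block and each library left out in turn.

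Replicate numbers come from the labels. Deviations from the fraction means correlated between libraries of the same number with r of 0.21 to 0.39, and the numbers were taken to pair the libraries. Between libraries of different numbers r was -0.29 to -0.01. These negative values follow in part from centring each fraction on its own mean and are not separate evidence. No pair of libraries was alike within sampling noise (lowest chi-square per degree of freedom 93.7). The main test and the permutations did not use this pairing. As the litters behind the libraries are not named, p-values measure only the spread between these libraries.

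Named were all 9 genes, Pecam1, Kit and Gata2, every VEGF ligand, Ptprb, listed genes with an unadjusted p under 0.05 or without overlap, and the 5 closest profiles to Kdr and to the mean of 4 receptors. Other marker genes named as examples were picked from the lists after their values were seen. The 9 genes and the 14 lists (6 of partners, 8 of cell type markers) were chosen with earlier results of these data known.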

Additional observations from a re-analysis of the deposited data

How the results depend on the processing

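Over 331 alternative values of 44 results, 298 kept their direction and side of the threshold or, for ratios with no test, moved by less than the SD between replicates. These include 1 ratio that changed sign (Tek to Kdr in Vmed). They also include the exact permutation tests, whose smallest possible p of 0.1 is over the threshold of 0.05. For those tests only the direction could change. The number of genes with an adjusted p under 0.05 was 0 by edgeR's quasi-likelihood test (259 at an unadjusted p under 0.05), 37 without the filter (1 of the 9 genes), 21 by the likelihood ratio test (1 of the 9), 51 by DESeq2 (1 of the 9) and 74 by the likelihood ratio test with the replicate block (2 of the 9). With each library left out it was 0 to 1: the 1 gene, without Vhigh replicate 1, was Dcn (log2 fold change -6.33), and 0 to 0 of the 9 genes passed. Angpt1 passed with log2 fold changes of 4.82 (no filter), 4.82 (likelihood ratio test), 4.84 (DESeq2) and 5.01 (likelihood ratio test with the block), and over its 18 alternatives the adjusted p ranged from 1.03e-06 to 0.9999. With the quasi-likelihood test the replicate block called 0 genes, and limma-voom called 0 genes. Nrp1 passed with -2.35 under the likelihood ratio test with the block, with adjusted p from 0.0082 to 1.0 over 18 alternatives.

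Flt1 turned positive with limma-voom (0.25) and with the replicate block (0.23 in both tests), and ranged from -1.58 to 1.21 with a library left out, positive without Vmed replicate 3. Nrp2 ranged from -1.58 to 0.39 (positive without Vmed replicate 3) and Tie1 from -0.68 to 2.25 (negative without Vmed replicate 1 or 2 or Vhigh replicate 3). Kdr ranged from -1.89 to -0.02, Tek from -1.73 to -0.15, Flt4 from -3.85 to -0.88 and Angpt2 from -4.22 to -1.85. Relative to Cdh5 in place of Pecam1, Kdr and Tek had differences of 0.31 and 0.37. With a library left out the differences relative to Pecam1 ranged from -0.71 to 0.0051 for Kdr, -0.055 to 1.63 for Flt1, -0.28 to 0.57 for Nrp2, -0.61 to 0.085 for Tek and -4.76 to -1.10 for Flt4. With the longest transcript as length the Vhigh log2 ratios of Flt1 and Tek to Kdr were -2.19 and -0.19, and that of Tek to Kdr in Vmed was -0.25. The causes were not tested. No scaling turned the direction of any of the 9 genes. A gene with under 3 reads in a library, as Flt4 and Angpt2 in Vhigh replicate 1, has no resolved level there.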
